A study of Homo sapiens with 8 samples.

Results

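Aminoacyl-tRNA synthetases attach each amino acid to its transfer RNA, and the set described here holds 35 of their genes, 19 encoding cytosolic enzymes and 16 encoding mitochondrial ones. The members were listed by gene symbol, with earlier results of these data known, and they were found among 36715 genes of the deposited count table, apart from MARS2, which was read from the deposited normalized table. The cells were MDA-MB-231, an established human triple-negative breast cancer line, grown in serum-supplemented medium and profiled by bulk RNA-seq. They received EMD37, a compound known here by its code name alone, at 0.5 µM for 12 h or 24 h, or the DMSO vehicle for the same times, with 2 libraries (A and B) in each of the 4 groups and 8 libraries in all. The series title states its subject as endoplasmic reticulum stress in cancer cells. The labels name 1 cell line and do not say whether the libraries of a group came from separate cultures, so the p-values rest on a spread that may be technical.

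Human cells keep separate enzymes for the 2 compartments for most amino acids, with mitochondrial forms encoded in the nucleus and imported. GARS1 and KARS1 each make both forms from 1 gene, and mitochondria make glutaminyl-tRNA through an amidotransferase in place of a glutamine enzyme. When a stress kinase phosphorylates the initiation factor eIF2α, the transcription factor ATF4 accumulates, and genes of amino acid supply and tRNA charging, many cytosolic synthetases among them, are known targets. ATF4 binds, with C/EBP family partners, DNA elements with the core TGATGNAA, where N is any base.

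The RefSeq promoter windows of the members, from 250 bases before the transcription start site to 50 after it on build GRCh38.p14, were searched for that core on both strands (TTNCATCA is its reverse complement). Windows were at hand for 30 of the 35 members, 39 windows in all; YARS1, LARS1, VARS1, AARS2 and VARS2 had none. The core stood in 7 of 16 cytosolic genes with a window (43.8%) and in 1 of 14 mitochondrial genes (7.14%), against 1217 of 27305 genes in the whole table (4.46%) and 1270 of 35116 windows (3.62%). Stretches of 90 bases, read 5′ to 3′ on the gene's strand with the match in capitals, are shown because the 7 cytosolic genes that hold a match, AARS1, CARS1, GARS1, IARS1, MARS1, NARS1 and TARS1, were all higher with EMD37 at 24 h. They lie at chr16:70289644-70289733 (minus strand, AARS1), chr11:3057394-3057483 (minus, CARS1), chr7:30594818-30594907 (plus, GARS1), chr9:92293668-92293757 (minus, IARS1), chr12:57488008-57488097 (plus, MARS1), chr18:57621807-57621896 (minus, NARS1) and chr5:33440905-33440994 (plus, TARS1).
AARS1: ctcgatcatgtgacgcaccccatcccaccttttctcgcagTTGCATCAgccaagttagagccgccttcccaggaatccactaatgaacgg
CARS1: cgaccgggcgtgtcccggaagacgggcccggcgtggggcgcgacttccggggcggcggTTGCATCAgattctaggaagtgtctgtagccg
GARS1: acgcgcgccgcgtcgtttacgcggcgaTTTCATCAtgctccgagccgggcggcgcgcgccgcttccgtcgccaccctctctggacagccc
IARS1: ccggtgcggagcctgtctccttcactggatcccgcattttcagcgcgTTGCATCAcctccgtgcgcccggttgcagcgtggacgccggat
MARS1: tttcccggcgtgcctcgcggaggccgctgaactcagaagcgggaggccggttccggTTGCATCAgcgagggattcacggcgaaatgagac
NARS1: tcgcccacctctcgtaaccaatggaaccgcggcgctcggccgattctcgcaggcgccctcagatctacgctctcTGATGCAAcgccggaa
TARS1: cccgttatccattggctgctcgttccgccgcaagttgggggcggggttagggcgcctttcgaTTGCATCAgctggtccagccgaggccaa

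WARS1, SARS1 and EPRS1 were also higher at 24 h but held no match in their windows, and their sequences are not shown. For contrast, the mitochondrial gene with a match, YARS2 (chr12:32756045-32756134, minus strand), is shown with FARSB (chr2:222656063-222656152, minus) and QARS1 (chr3:49104728-49104817, minus), which fell at 24 h and held no match in their windows.
YARS2: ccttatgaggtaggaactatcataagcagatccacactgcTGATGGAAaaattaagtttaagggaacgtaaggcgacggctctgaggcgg
FARSB: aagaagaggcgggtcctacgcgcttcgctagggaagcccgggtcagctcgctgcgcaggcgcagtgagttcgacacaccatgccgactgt
QARS1: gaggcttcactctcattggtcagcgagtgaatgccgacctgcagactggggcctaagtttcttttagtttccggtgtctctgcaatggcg

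The match began 2 bases before the start site in CARS1, 4 before it in MARS1, 13 in IARS1 and 33 in GARS1 (positions -2, -4, -13 and -33). It began at position 3 after the start site in TARS1 and 15 in NARS1, and farther upstream, at -187, in AARS1 and, at -197, in YARS2. In 6 of the 7 cytosolic genes the variable base was C, giving TGATGCAA, a form present in 304 of 35116 windows (0.866%), and GARS1 was the exception. TGATGCAAT, which contains that form, was found in TARS1 alone among the members and in 0.236% of windows. The ER stress response element, CCAAT and CCACG with 9 free bases between them, also searched on both strands, was in no member's window and in 27 of 35116 windows (0.0769%). By call at 24 h, the TGATGNAA core stood in 7 of 10 cytosolic genes that were higher and had a window, in 0 of 4 that were lower and in 0 of 2 that were not called. Over all tested genes with a window it stood in 96 of 2235 that were higher (4.30%), 54 of 2475 that were lower (2.18%) and 170 of 6044 that were not called (2.81%). A match is a run of letters and not a measured binding site, and a window without one says nothing about the factor.

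**Figure D1:**
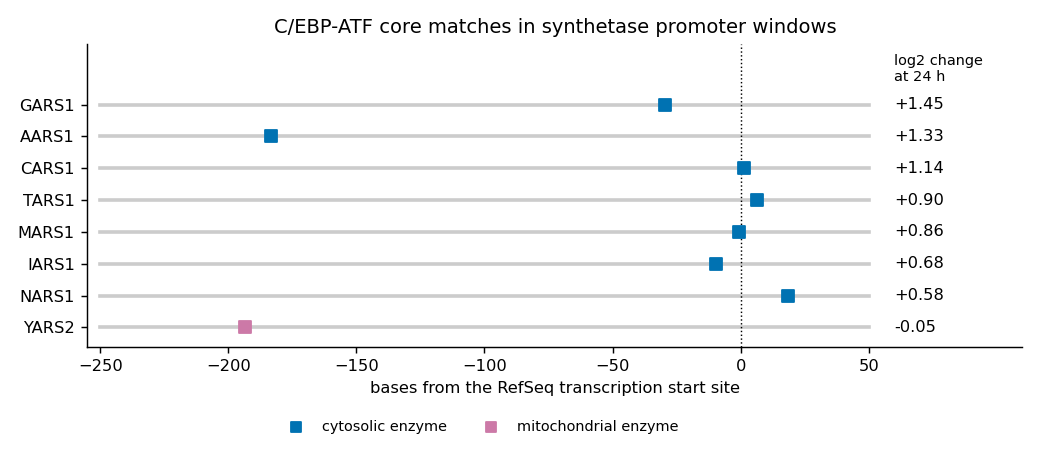
TGATGNAA matches in the RefSeq promoter windows of the 8 members that hold one. The grey line is the window, from 250 bases before the start site (dotted line) to 50 after it, each square is a match, and the log2 change at 24 h (EMD37 over vehicle) stands at the right; 6 of the 7 cytosolic matches lie within 33 bases of the start site, and AARS1 and the mitochondrial YARS2 have theirs at -187 and -197.

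Counted reads numbered 8.99 M to 11.44 M per library (M, mega). Markers of the line matched its label, with VIM at 1551, CD44 at 1112, AXL at 1108 and FN1 at 371 CPM (a gene's reads in each M counted reads of its library, mean of 8 libraries). ESR1, PGR, ERBB2, CDH1 and EPCAM were between 0.0716 and 4.02 CPM, and of 5 leukocyte and 2 endothelial markers counted, none exceeded a mean of 0.530 CPM and LYZ was at 0. CPM values below are scaled by TMM library sizes. A gene was called at an adjusted p below 0.05 in edgeR's quasi-likelihood test, fitted to 14850 genes in all 8 libraries with Benjamini-Hochberg adjustment, and errors (SE) are standard errors of the log2 fold change. In bulk libraries fewer cells with a transcript and less of it per cell cannot be told apart.

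At 12 h EMD37 raised 7 of the 19 cytosolic synthetases and lowered none, where 5.27% of all tested genes were higher and 3.43% were lower. The 7 were GARS1, AARS1, YARS1, WARS1, CARS1, SARS1 and MARS1. The median log2 change of the 19 was 0.25, against -0.01 over all genes. The count of none lower held at an unadjusted p below 0.05, where edgeR had 11 higher and 0 lower, and in DESeq2, which had 7 higher and 0 lower. At 24 h 11 of the 19 were higher, the same 7 with TARS1, IARS1, EPRS1 and NARS1 added, and 4 were lower, FARSB, RARS1, QARS1 and HARS1. That time changed far more of the transcriptome, with 19.6% of genes higher and 21.1% lower, so the share of cytosolic members that fell (21.1%, 4 of 19) was at the background and the share that rose (57.9%) was above it. The median log2 change of the 19 at 24 h was 0.59, against -0.03 over all genes.

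Mitochondrial synthetases did not share the rises. Of the 15 tested from the count table none was called at 12 h in either direction, with 0 also at an unadjusted p below 0.05 in edgeR and 0 in DESeq2. At that time 5.27% of all genes were higher and 3.43% lower, so a count of none among 15 is near the background. MARS2, tested in the fit with recovered reads, was called lower at both times and is described below. At 24 h none of the 15 was higher, beside 19.6% of all genes, again with 0 at an unadjusted p below 0.05 and 0 in DESeq2. Lower at 24 h were 5 (33.3%, beside 21.1% of all genes). DESeq2 called 3 lower, where it called 2314 of 14850 genes lower, and edgeR with a replicate block called 6. The count also changed with the library left out, as given below, so a share above that of all genes was not stable. The median log2 change of the 15 was -0.05 at 12 h and -0.08 at 24 h, against -0.01 and -0.03 over all genes.

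**Figure D2:**
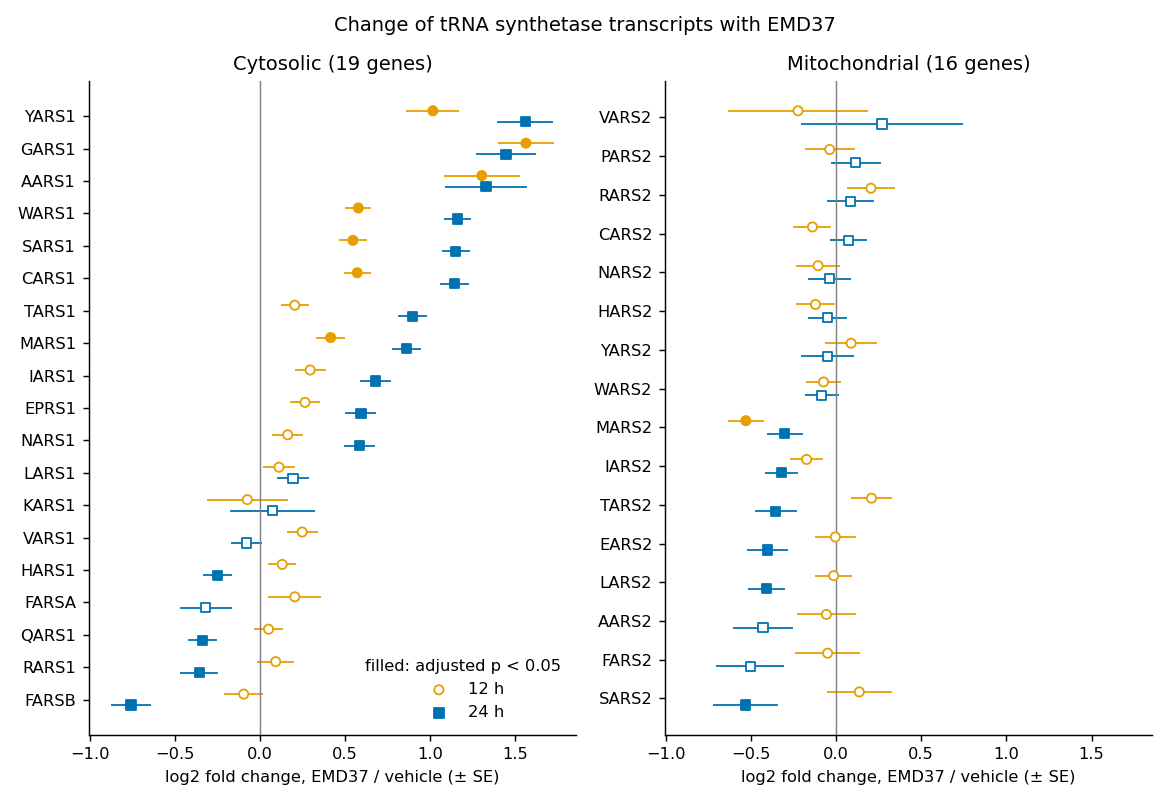
Log2 fold change with EMD37 (EMD37 over vehicle, bars ± 1 SE) of the 35 synthetases at 12 h (circles) and 24 h (squares), ordered by the change at 24 h; filled symbols have an adjusted p below 0.05. Cytosolic genes (left) run from YARS1 at 1.56 to FARSB at -0.76 at 24 h, and mitochondrial genes (right) have filled symbols only to the left of 0; MARS2 comes from the fit with recovered reads.

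The largest rises were in 3 genes counted from few reads, the alanine enzyme AARS1, the glycine enzyme GARS1 and the tyrosine enzyme YARS1. GARS1 (ENSG00000106105, chromosome 7, 30594681 to 30634033 on GRCh38), which serves both compartments, had 24.2 and 30.9 CPM in the EMD37 libraries at 12 h, against 10.4 and 8.38 in vehicle. At 24 h it had 21.1 and 21.5 CPM with EMD37 and 7.50 and 8.19 in vehicle. Every EMD37 library was above every vehicle library at both times, and the log2 change was 1.56 (SE 0.17, edgeR adjusted p = 6.63e-06) at 12 h and 1.45 (SE 0.17, adjusted p = 5.94e-06) at 24 h.

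AARS1 (ENSG00000090861, chromosome 16, 70252295 to 70289543) had 9.77 and 14.8 CPM with EMD37 at 12 h and 4.78 and 5.13 in vehicle. At 24 h it had 10.4 and 9.56 CPM with EMD37 and 4.26 and 3.66 in vehicle. The groups stood apart at both times, although the 12 h EMD37 libraries differed more from each other than any other AARS1 pair. The changes were 1.30 (SE 0.22, edgeR adjusted p = 0.000985) at 12 h and 1.33 (SE 0.24, adjusted p = 0.000305) at 24 h, and they rest on 34 to 149 reads per library.

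YARS1 (ENSG00000134684, chromosome 1, 32775237 to 32818153) had 24.5 and 22.2 CPM with EMD37 at 12 h and 11.2 and 11.9 in vehicle. At 24 h it had 24.2 and 22.9 CPM with EMD37 and 9.07 and 6.79 in vehicle. The EMD37 libraries of the 2 times were alike, and the groups did not overlap at either time. The log2 change was 1.02 (SE 0.16, edgeR adjusted p = 0.000343) at 12 h and 1.56 (SE 0.16, adjusted p = 1.32e-06) at 24 h. Cultured cells usually hold many reads of these housekeeping genes, and per kilobase of exon AARS1 averaged 1.74, YARS1 2.02 and GARS1 3.98 RPKM (reads per kilobase, scaled to library size, mean of 8 libraries), below the median of 17.03 over the 19 cytosolic genes. The reason for these low counts is not given in the sources used here; none of the exon bases of AARS1 is shared with another annotated gene.

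WARS1, SARS1, CARS1 and MARS1 were higher at 12 h and further from vehicle at 24 h. WARS1, the tryptophan enzyme (ENSG00000140105, chromosome 14), had 217 and 221 CPM with EMD37 at 12 h, against 137 and 156 in vehicle, and 232 and 237 with EMD37 at 24 h, against 106 and 103 in vehicle. SARS1, which charges serine and selenocysteine tRNAs (ENSG00000031698, chromosome 1), had 342 and 383 CPM with EMD37 at 12 h, against 253 and 244 in vehicle, and 418 and 446 with EMD37 at 24 h, against 204 and 185 in vehicle. Both genes were at least as high with EMD37 at 24 h as at 12 h, while their vehicle libraries were lower at 24 h than at 12 h. The log2 change of WARS1 was 0.58 (SE 0.08, edgeR adjusted p = 8.78e-05) at 12 h and 1.16 (SE 0.08, adjusted p = 8.12e-09) at 24 h. That of SARS1 was 0.55 (SE 0.08, adjusted p = 0.000255) at 12 h and 1.15 (SE 0.08, adjusted p = 1.4e-08) at 24 h.

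CARS1, the cysteine enzyme (ENSG00000110619, chromosome 11, 3000922 to 3057613), had 99.4 and 97.3 CPM with EMD37 at 12 h, against 68.0 and 64.5 in vehicle, and 107 and 109 with EMD37 at 24 h, against 50.1 and 47.9 in vehicle. Its replicates lay within a few CPM of each other in each group, and the log2 change was 0.57 (SE 0.08, edgeR adjusted p = 0.000146) at 12 h and 1.14 (SE 0.08, adjusted p = 1.56e-08) at 24 h.

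MARS1, the methionine enzyme (ENSG00000166986, chromosome 12, 57475445 to 57517569), had 287 and 317 CPM with EMD37 at 12 h, against 232 and 221 in vehicle, and 258 and 283 with EMD37 at 24 h, against 158 and 139 in vehicle. The EMD37 libraries were above the vehicle libraries at both times, and at 24 h both groups were lower than at 12 h. The log2 change was 0.42 (SE 0.08, edgeR adjusted p = 0.00417) at 12 h and 0.86 (SE 0.09, adjusted p = 6.76e-07) at 24 h. The 12 h call did not hold without vehicle 12 h B (adjusted p = 0.0913) or without EMD37 12 h B (0.139). MARS1 shares 519 exon bases (7.4% of its own) with ARHGAP9 and 355 (5.05%) with the stress gene DDIT3, both on the opposite strand. The kit does not mark strand. DDIT3 had 1734 and 1919 reads with EMD37 at 12 h, against 162 and 224 in vehicle, beside 3117 and 3187 reads of MARS1 with EMD37, against 2284 and 2584 in vehicle; what the shared bases add to MARS1 was not tested.

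The threonine enzyme TARS1, the isoleucine enzyme IARS1, the asparagine enzyme NARS1 and EPRS1, which joins the glutamate and proline enzymes in 1 chain, passed the test at 24 h and not at 12 h. TARS1 (ENSG00000113407, chromosome 5) had 765 and 811 CPM with EMD37 at 12 h, against 715 and 653 in vehicle, and 1019 and 1115 with EMD37 at 24 h, against 602 and 544 in vehicle. Its groups stood apart at both times, by little at 12 h, where the log2 change was 0.20 (SE 0.08, edgeR adjusted p = 0.151), and by more at 24 h, where it was 0.90 (SE 0.08, adjusted p = 3.23e-07).

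IARS1 (ENSG00000196305, chromosome 9) had 434 and 431 CPM with EMD37 at 12 h, against 368 and 337 in vehicle, and 419 and 478 with EMD37 at 24 h, against 305 and 255 in vehicle. The groups did not overlap at either time, and the log2 change was 0.30 (SE 0.09, edgeR adjusted p = 0.0567) at 12 h and 0.68 (SE 0.09, adjusted p = 1.99e-05) at 24 h. EPRS1 (ENSG00000136628, chromosome 1) had 173 and 180 CPM with EMD37 at 12 h, against 153 and 141 in vehicle, and 169 and 198 with EMD37 at 24 h, against 129 and 114 in vehicle. It too had no overlap of groups, with a log2 change of 0.27 (SE 0.09, adjusted p = 0.081) at 12 h and 0.59 (SE 0.09, adjusted p = 6.64e-05) at 24 h.

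NARS1 (ENSG00000134440, chromosome 18) had 608 and 663 CPM with EMD37 at 12 h, against 597 and 538 in vehicle, and 737 and 799 with EMD37 at 24 h, against 552 and 472 in vehicle. The groups nearly met at 12 h, with a log2 change of 0.16 (SE 0.09, edgeR adjusted p = 0.302), and were clearly apart at 24 h, with 0.58 (SE 0.09, adjusted p = 7.13e-05). Per exon length NARS1 and TARS1 had the highest levels of all 35 members, at 152 and 136 RPKM over the 8 libraries, followed by SARS1 at 80.6 and IARS1 at 51.1.

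**Figure D3:**
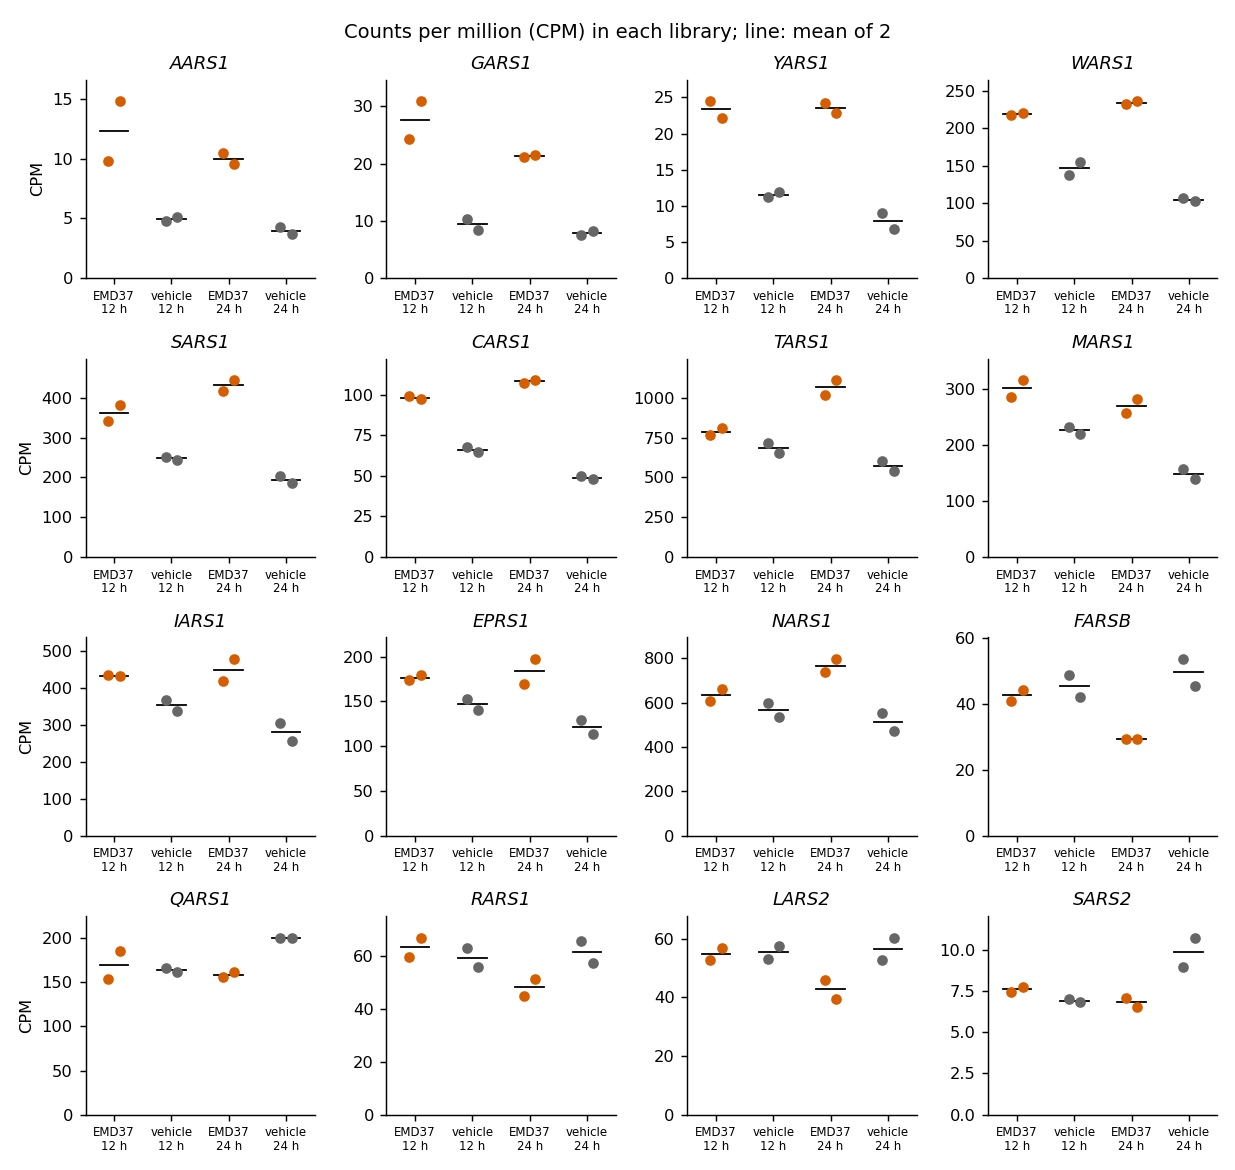
CPM (linear axis from 0) in each of the 8 libraries for 16 synthetases; points are libraries A and B, the line is their mean, EMD37 is orange and vehicle grey. The first 11 panels show genes higher at 24 h, where every EMD37 point is above every vehicle point, and the last 5 panels show FARSB, QARS1, RARS1, LARS2 and SARS2, where every EMD37 point at 24 h is below every vehicle point.

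The test of the treatment by time interaction asked directly whether the effect at 24 h differed from that at 12 h. It was positive for 6 cytosolic genes (7.96% of all genes were higher and 7.94% lower in this test), namely TARS1 by 0.69, SARS1 by 0.60, WARS1 by 0.58, CARS1 by 0.57, MARS1 by 0.45 and NARS1 by 0.42 on the log2 scale. The edgeR adjusted p was 0.000827 for TARS1, 0.00191 for SARS1, 0.00184 for WARS1 and 0.00293 for CARS1, and these 4 held without each library in turn. The MARS1 call (adjusted p = 0.0177) was lost without vehicle 12 h A (0.0917), EMD37 12 h A (0.116) or EMD37 24 h B (0.0921). The NARS1 call (adjusted p = 0.0328) was lost without vehicle 12 h A (0.178), EMD37 12 h A (0.17), EMD37 12 h B (0.0798), vehicle 24 h B (0.0715) or EMD37 24 h B (0.132). For the 3 genes with the largest rises the difference between the times was not called, at 0.03 (SE 0.32) for AARS1, -0.12 (SE 0.24) for GARS1 and 0.54 (SE 0.23, adjusted p = 0.121) for YARS1. IARS1 and EPRS1 passed the test at 24 h alone, but their difference between the times was not called either. It was 0.38 (edgeR adjusted p = 0.0548) for IARS1 and 0.33 (adjusted p = 0.0936) for EPRS1.

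Part of the widening lay in the vehicle libraries. For MARS1 the vehicle fall (0.61) was larger than the interaction (0.45), and for the other genes with a positive interaction call it was smaller. Between vehicle at 24 h and vehicle at 12 h, 5 cytosolic genes were lower (3.25% of all genes were) and edgeR called none higher (2.75% of genes), with 3 higher at an unadjusted p below 0.05 and 0 in DESeq2. MARS1 fell by 0.61 on the log2 scale, WARS1 by 0.48, CARS1 by 0.43, SARS1 by 0.35 and IARS1 by 0.33. MARS1 was called without each library in turn, whereas the WARS1 call was lost without vehicle 12 h B (edgeR adjusted p = 0.0655) and the CARS1 call without vehicle 12 h A (0.155) or B (0.051). The SARS1 call was lost without vehicle 12 h A (0.235) or B (0.0914), EMD37 12 h B (0.0557) or vehicle 24 h B (0.112). The IARS1 call (adjusted p = 0.0456) was lost without any library other than vehicle 24 h A, at an adjusted p of 0.0516 to 0.379. No mitochondrial member was called in this comparison by edgeR, which had 1 higher and 0 lower at an unadjusted p below 0.05, or by DESeq2.

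Of the 4 cytosolic genes that were lower at 24 h, FARSB fell most. FARSB encodes the beta subunit of the phenylalanine enzyme (ENSG00000116120, chromosome 2). It had 41.0 and 44.4 CPM with EMD37 at 12 h, against 49.0 and 42.3 in vehicle, and 29.46 and 29.54 with EMD37 at 24 h, against 53.9 and 45.7 in vehicle. The groups overlapped at 12 h (log2 -0.09, SE 0.11) and stood apart at 24 h (log2 -0.76, SE 0.12, edgeR adjusted p = 8.56e-05). Its interaction was -0.66 (adjusted p = 0.0119), a call lost without vehicle 12 h B (0.085) or EMD37 12 h B (0.0878). FARSA, the alpha subunit of the same enzyme, had 86.8 and 74.5 CPM with EMD37 at 24 h and 78.7 and 123 in vehicle, where the groups overlapped and the vehicle libraries lay far apart (log2 -0.32, SE 0.15, adjusted p = 0.112).

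QARS1, the glutamine enzyme, had 156 and 162 CPM with EMD37 at 24 h, against 201 and 200 in vehicle (log2 -0.34, SE 0.09, edgeR adjusted p = 0.00486). RARS1, the arginine enzyme, had 45.1 and 51.4 CPM with EMD37 at 24 h, against 65.9 and 57.5 in vehicle (log2 -0.36, SE 0.11, adjusted p = 0.0162). HARS1, the histidine enzyme, had 85.6 and 83.5 CPM with EMD37 at 24 h, against 94.2 and 107 in vehicle (log2 -0.25, SE 0.08, adjusted p = 0.0246). All 3 had groups that did not overlap, with changes smaller than that of FARSB and calls that depended on libraries. The QARS1 call was lost without EMD37 24 h A (adjusted p = 0.0625), and the RARS1 call without vehicle 24 h A (0.149) or EMD37 24 h A (0.199). The HARS1 call was lost without vehicle 12 h B (0.0507), EMD37 12 h B (0.0547), vehicle 24 h B (0.248), EMD37 24 h A (0.097) or EMD37 24 h B (0.108), and in DESeq2 (0.0881). HARS1 shares 437 exon bases (5.57%) with its mitochondrial counterpart HARS2 on the opposite strand.

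The interaction was negative for HARS1 at -0.38 (edgeR adjusted p = 0.0356) and QARS1 at -0.39 (adjusted p = 0.0386), next to FARSB. The HARS1 call was lost without any library other than vehicle 24 h A, at an adjusted p of 0.0892 to 0.138. The QARS1 call was lost without vehicle 12 h A (0.107), vehicle 12 h B (0.157), EMD37 12 h B (0.309), EMD37 24 h A (0.145) or EMD37 24 h B (0.082).

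The lysine enzyme KARS1, the leucine enzyme LARS1, the valine enzyme VARS1 and FARSA were not called at either time. LARS1 had 129 and 144 CPM with EMD37 at 24 h, against 127 and 111 in vehicle (log2 0.19, SE 0.09, edgeR adjusted p = 0.112). VARS1 had 79.6 and 85.8 CPM with EMD37 at 24 h, against 79.9 and 95.0 in vehicle (log2 -0.08, SE 0.09, adjusted p = 0.538). KARS1 was counted from 38 to 63 reads per library, 1.18 RPKM on average, and its log2 change of 0.07 at 24 h had an SE of 0.25, the widest of the cytosolic genes.

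Grouped by assembly, 3 of the 7 members that sit in the multi-synthetase complex were higher at 24 h (MARS1, IARS1 and EPRS1) and 2 were lower (QARS1 and RARS1), with a median log2 change of 0.19. Of the 12 outside it 8 were higher and 2 lower, with a median of 1.02. By catalytic fold, 5 of 9 class I enzymes were higher and 2 lower (median 0.68), and 5 of 9 class II enzymes were higher and 2 lower (median 0.58). EPRS1, which holds a domain of each class, is counted in neither. Over all genes 19.6% were higher and 21.1% lower, and the counts of lower members in these groupings are near that share. The difference between the groupings was not tested.

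In the mitochondrial set the genes called lower at 24 h were SARS2, LARS2, EARS2, TARS2 and IARS2, which charge serine, leucine, glutamate, threonine and isoleucine tRNAs. SARS2 (ENSG00000104835, chromosome 19) had 7.46 and 7.76 CPM with EMD37 at 12 h, against 7.01 and 6.84 in vehicle, and 7.08 and 6.56 with EMD37 at 24 h, against 8.98 and 10.8 in vehicle. The vehicle libraries at 24 h stood above the other 6, and the log2 change there was -0.53 (SE 0.19, edgeR adjusted p = 0.0348). The call was lost without EMD37 12 h B (0.0515), vehicle 24 h B (0.185), EMD37 24 h A (0.0933) or EMD37 24 h B (0.154), and in DESeq2 (0.16). SARS2 shares 57.0% of its exon bases with other genes, 1492 of them with a read-through gene on its own strand, and how reads of shared bases were counted is not given in the sources used here.

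LARS2 had 45.9 and 39.5 CPM with EMD37 at 24 h, against 52.8 and 60.4 in vehicle (log2 -0.41, SE 0.11, edgeR adjusted p = 0.00707). EARS2 had 44.2 and 43.6 CPM with EMD37, against 63.0 and 53.0 in vehicle (log2 -0.40, SE 0.12, adjusted p = 0.0138). In both genes the 2 EMD37 libraries lay below the 2 vehicle libraries. TARS2 had 30.9 and 26.6 CPM with EMD37, against 35.5 and 38.0 in vehicle (log2 -0.35, SE 0.12, adjusted p = 0.0282). IARS2 had 84.4 and 98.7 CPM with EMD37, against 123 and 105 in vehicle (log2 -0.32, SE 0.10, adjusted p = 0.0138). Each of these calls was lost with 1 library left out. The adjusted p was 0.0991 for LARS2 without EMD37 24 h B, and 0.128, 0.0753 and 0.0762 for EARS2 without vehicle 24 h A, EMD37 24 h A and EMD37 24 h B. It was 0.0502, 0.0671 and 0.223 for TARS2 without EMD37 12 h B, vehicle 24 h B and EMD37 24 h B, and 0.211 and 0.238 for IARS2 without vehicle 24 h A and EMD37 24 h A. The number of mitochondrial genes called lower was 1 without EMD37 24 h B, and 3 without EMD37 12 h B, vehicle 24 h B or EMD37 24 h A.

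TARS2 was the mitochondrial member whose effect was called different between the times, with an interaction of -0.56 (edgeR adjusted p = 0.0334) from log2 changes of -0.35 at 24 h and 0.21 at 12 h. That call was lost without vehicle 12 h A (0.145), vehicle 12 h B (0.0543), EMD37 12 h A (0.136), EMD37 12 h B (0.0782) or EMD37 24 h B (0.156). In the interaction edgeR called no mitochondrial member higher, with 0 at an unadjusted p below 0.05 and 0 in DESeq2.

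MARS2, the mitochondrial methionine enzyme (ENSG00000247626, chromosome 2), took its reads from the normalized table and its test from a fit of 17863 genes that added all genes recovered in that way. It had 59.1 and 56.2 CPM with EMD37 at 12 h, against 79.4 and 87.0 in vehicle, and 61.8 and 59.9 with EMD37 at 24 h, against 65.9 and 84.2 in vehicle. The EMD37 libraries were below the vehicle libraries at both times, and vehicle 24 h A came within a few CPM of them. The log2 change was -0.53 (SE 0.11, edgeR adjusted p = 0.00292) at 12 h and -0.30 (SE 0.11, adjusted p = 0.0329) at 24 h. The 12 h call was lost without vehicle 12 h B (0.0796), EMD37 12 h A (0.0508) or EMD37 12 h B (0.0861), and the 24 h call without vehicle 24 h B (0.445), EMD37 24 h A (0.0997) or EMD37 24 h B (0.146).

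The 10 remaining mitochondrial members were not called at either time. FARS2, the phenylalanine enzyme, came nearest at 24 h, with 11.9 and 8.88 CPM with EMD37, against 12.9 and 16.6 in vehicle (log2 -0.50, SE 0.20, edgeR adjusted p = 0.053). AARS2, the alanine enzyme, had 15.9 and 17.6 CPM with EMD37, against 18.9 and 26.5 in vehicle (log2 -0.43, SE 0.18, adjusted p = 0.0647). Both had groups that did not overlap. WARS2, the tryptophan enzyme, had 40.9 and 41.7 CPM with EMD37 and 44.7 and 42.8 in vehicle (log2 -0.08, SE 0.10). The log2 changes of CARS2, HARS2, NARS2, PARS2, RARS2 and YARS2 at 24 h lay between -0.05 and 0.12. VARS2, with 9 to 20 reads per library, had an SE of 0.47 at 24 h, too wide for a call. The median level was 7.97 RPKM over the 16 mitochondrial genes and 17.03 RPKM over the 19 cytosolic ones.

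Counted by groups that did not overlap at 24 h, 12 of 19 cytosolic genes had both EMD37 libraries above both vehicle libraries (31.4% of all genes did) and 4 had both below (35.4% of all genes). Of 15 mitochondrial genes 0 were above and 8 below. At 12 h 13 of 19 cytosolic genes were above (26.5% of all genes) and 0 below (28.4%), against 3 above and 3 below of the 15 mitochondrial genes.

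Summed reads showed the same shift in each library, in sums weighted toward the abundant genes. Over the 8 libraries TARS1, NARS1, IARS1 and SARS1 averaged 778, 621, 378 and 309 CPM. AARS1, GARS1 and YARS1, with the largest rises, averaged 7.80, 16.5 and 16.6 CPM. The ratio of reads on the 19 cytosolic genes to reads on the 15 mitochondrial genes was 7.60 and 8.09 with EMD37 at 12 h, against 6.32 and 6.16 in vehicle. At 24 h it was 8.68 and 9.52 with EMD37 and 5.31 and 4.92 in vehicle. Each EMD37 library had a higher ratio than each vehicle library, and the vehicle ratio was lower at 24 h than at 12 h. Summed CPM of the cytosolic genes at 24 h was 4031 and 4354 with EMD37 and 2833 and 2623 in vehicle, and that of the mitochondrial genes was 464 and 457 with EMD37 and 533.3 and 533.4 in vehicle.

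For 13 amino acids the set holds a cytosolic and a mitochondrial gene with paired symbols, such as SARS1 and SARS2, and these pairs were compared. Phenylalanine (FARSA and FARSB, with FARS2), glutamate (EPRS1, with EARS2) and proline (EPRS1, with PARS2) also have both enzymes but were left out. At 24 h the log2 change was -0.76 for FARSB, -0.32 for FARSA and -0.50 for FARS2. It was 0.59 for EPRS1, -0.40 for EARS2 and 0.12 for PARS2. The cytosolic log2 change exceeded the mitochondrial one in 10 of the 13 pairs at 24 h, with a median difference of 1.07 (range -0.44 to 1.76), and in 11 pairs at 12 h, with a median difference of 0.47 (range -0.11 to 1.36). The histidine, arginine and valine pairs were the exceptions at 24 h. For serine the read ratio of SARS1 to SARS2 was 59.1 and 67.9 with EMD37 at 24 h, against 22.7 and 17.2 in vehicle. For tryptophan the ratio of WARS1 to WARS2 was 5.69 and 5.67 with EMD37, against 2.38 and 2.41 in vehicle. In the tryptophan pair WARS1 was called higher and WARS2 was not called, and in the serine pair both genes were called, in opposite directions. The SARS2 call was lost in DESeq2 (adjusted p = 0.16), and 57.0% of the exon bases of SARS2 are shared with other genes. For arginine the ratio of RARS1 to RARS2 was 2.22 and 2.63 with EMD37, against 3.36 and 3.22 in vehicle, the reverse order.

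**Figure D4:**
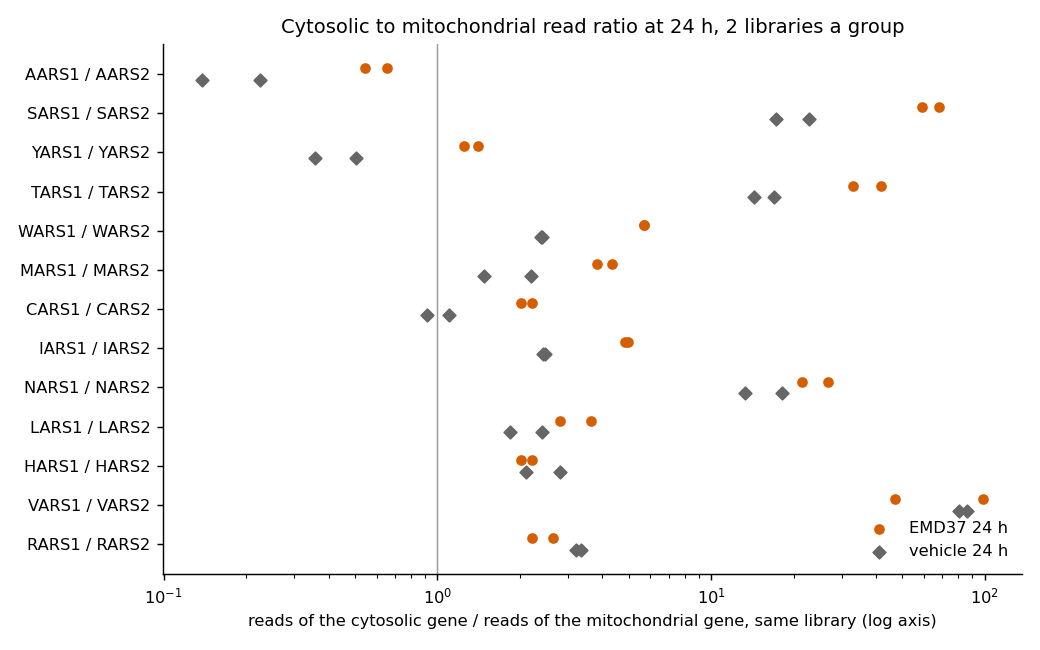
Reads of the cytosolic gene over reads of the mitochondrial gene in the same library at 24 h (log axis). Shown are the 13 amino acids whose 2 genes have paired symbols. Circles are the 2 EMD37 libraries, diamonds the 2 vehicle libraries, and pairs are ordered by the difference in log2 change. In 10 pairs both circles lie to the right of both diamonds, among them AARS1 / AARS2 (0.656 and 0.544 with EMD37, against 0.226 and 0.138 in vehicle) at the top; the histidine and valine pairs overlap and the arginine pair is reversed.

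Genes around tRNA charging were taken from lists of known roles, and their counts at 24 h stand beside 19.6% of all genes higher and 21.1% lower. The 3 scaffold proteins of the multi-synthetase complex are AIMP1, AIMP2 and EEF1E1, and AIMP2 alone was called at 24 h. It had 11.1 and 10.5 CPM with EMD37 at 24 h, against 18.5 and 19.2 in vehicle (log2 -0.80, SE 0.16, edgeR adjusted p = 0.000784), where AIMP1 had a change of -0.01 and EEF1E1 of -0.12. Its interaction was -0.99, a call lost without EMD37 12 h B (adjusted p = 0.0586). AIMP2 shares 28.9% of its exon bases with EIF2AK1 on the opposite strand. Of 5 synthetase-related genes tested, DTD2, which removes mischarged amino acids from tRNA, fell by 0.57 (adjusted p = 0.000924), and TARS3, DTD1, SEPSECS and PSTK were not called, a share near that of all genes.

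Among 4 genes that finish mitochondrial charging and initiation (GATB, QRSL1, MTFMT and TRNT1) edgeR called none at 24 h, with 0 at an unadjusted p below 0.05 and 0 in DESeq2. GATC, the third subunit of the glutamine amidotransferase, came from the fit with recovered reads and was higher by 0.34 (SE 0.08, edgeR adjusted p = 0.00254), but 47.6% of its exon bases are shared with other genes. Of 8 mitochondrial translation factors, GFM2, which recycles ribosomes, was higher by 0.30 (adjusted p = 0.0452) and MTIF2, an initiation factor, was lower by log2 -0.39 (adjusted p = 0.0112). The GFM2 call was lost without any library other than vehicle 24 h A, at an adjusted p of 0.0522 to 0.203, and MTIF2 lost its call without vehicle 24 h A (0.203) or EMD37 24 h A (0.129).

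On the cytosolic side, XPOT, which exports tRNA from the nucleus, had 292 and 323 CPM with EMD37 at 24 h, against 225 and 207 in vehicle (log2 0.51, SE 0.08, edgeR adjusted p = 6.74e-05). The elongation factors EEF2 and EEF1A1 were higher by 0.41 (edgeR adjusted p = 0.00196) and 0.37 (adjusted p = 0.0123). EEF1D was lower at -0.40 (adjusted p = 0.019), so that with XPOT 4 of 5 genes tested in that list were called. EEF1D shares 34.0% of its exon bases with other genes on the opposite strand. EEF1A1 has many near-identical pseudogenes, so its count is uncertain, and its call was lost without EMD37 24 h B (0.101). The EEF1D call was lost without vehicle 24 h B (0.246) or EMD37 24 h B (0.205). At 12 h edgeR called none of the genes tested in these 5 lists, with 0 at an unadjusted p below 0.05 and 0 in DESeq2.

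Genes of the amino acid response were measured in the same libraries. ATF4 had 758 and 821 CPM with EMD37 at 12 h, against 477 and 481 in vehicle, and 873 and 925 with EMD37 at 24 h, against 422.5 and 422.7 in vehicle. The list held 12 such genes, and PHGDH, with 1 to 7 reads per library, was left out by the filter. Of the 11 tested, 9 were higher at 12 h (5.27% of all genes) and 11 at 24 h (19.6% of all genes), with medians of 2.04 and 2.32 on the log2 scale. The xCT transporter gene SLC7A11 was higher by log2 0.97 at 12 h and 2.91 at 24 h, and its heavy-chain partner SLC3A2 by 0.93 and 2.54. CHAC1 was higher by 2.97 and 2.99 and TRIB3 by 2.04 and 2.10 at the same times. Part of the widening of SLC7A11 (interaction 1.94) lay in its vehicle libraries, at 521 and 528 CPM at 12 h and 241 and 238 at 24 h. In vehicle over time 3 of the 11 were lower (27.3%, beside 3.25% of all genes), SLC7A11 at log2 -1.13, PSAT1 at -1.19 and TRIB3 at -0.45. The effect was smaller at 24 h for DDIT3, with 2.32 at 24 h and 3.29 at 12 h (interaction -0.98, edgeR adjusted p = 0.00114), and for SESN2, with 1.82 at 24 h and 2.95 at 12 h (interaction -1.12, adjusted p = 0.00796), a call lost without vehicle 24 h B (0.0575). The 7 synthetases that were higher at both times had changes of 0.42 to 1.56 at 12 h and 0.86 to 1.56 at 24 h, where the 11 response genes ran from 0.11 to 3.29 and from 0.81 to 3.15. Of the 12 listed response genes 11 had a promoter window. The core TGATGNAA stood in 4 of those with a window (ASNS, ATF3, CHAC1 and SLC3A2), or 36.4%, beside 43.8% of the cytosolic synthetases. The form TGATGCAA stood in 1 response gene, CHAC1 (9.09%), beside 37.5% of the cytosolic synthetases.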

How the data were processed

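RNA was read as bulk libraries of the TruSeq V2 kit, per the labels' protocols, and that kit does not mark strand. FastQC, STAR, DESeq2 and build hg38 are named in the submitters' processing notes; no source used here gives versions, the counting program or its strand setting. The authors deposited whole-number read counts per gene, the input to every test, and normalized counts (signal), which equal the counts divided by 1 size factor per library. The count table at hand was incomplete, with 36715 genes of which 30765 had reads (8.99 M to 11.44 M reads per library). The normalized table held 27682 IDs, and for the 6912 IDs lacking in that copy all 55296 values came out as whole reads within 0.01; these recovered reads served MARS2, GATC and AARSD1 and an alternative fit.

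Genes were named with GENCODE 29, and older synthetase symbols without the final 1 were taken as the same gene. In edgeR 4.0.16 (R 4.3.3, limma 3.58.1) filterByExpr (minimum count 10) left 14850 genes to test, TMM factors ran from 0.948 to 1.03, and a model with 1 mean per group had a common dispersion of 0.00537 and 4 residual degrees of freedom. Alternatives were DESeq2 1.42.0, its size factors, no filter, recovered reads, a replicate block, the libraries of 1 time, and each library left out. Leaving out libraries for MARS2 and all alternatives for single related genes were added after the data were seen. Members called with a log2 change of at least 0.5 have values for every library; others are given by single values or ranges. The members and lists were chosen with earlier results of these data known. Promoter windows are RefSeq's, on GRCh38.p14.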

Additional observations from a re-analysis of the deposited data

Results flagged for a closer look

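Among the synthetases and the genes around tRNA charging, without the amino acid response list, 14 genes were called in the test of whether the effect of EMD37 at 24 h differed from its effect at 12 h (edgeR's interaction test), where 7.96% of all genes were higher and 7.94% lower. Among cytosolic synthetases the difference on the log2 scale was 0.69 for TARS1, 0.60 for SARS1, 0.58 for WARS1, 0.57 for CARS1, 0.45 for MARS1 and 0.42 for NARS1. It was -0.66 for FARSB, -0.39 for QARS1 and -0.38 for HARS1, and among mitochondrial synthetases it was -0.56 for TARS2. Of the related genes, the complex scaffold AIMP2 had -0.99 (1 of 3 scaffolds tested) and the deacylase DTD2 -0.55 (1 of 5 synthetase-related genes). The tRNA exporter XPOT had 0.38 (1 of 5 elongation and export genes) and the amidotransferase subunit GATC 0.39. None was called of the 8 mitochondrial translation factors or of the 4 mitochondrial charging genes tested from the count table.

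TARS1, SARS1, WARS1 and CARS1 were called with each library left out in turn, and the libraries on which the other members' calls depend stand beside them in the report. The DTD2 call was lost without vehicle 12 h A (edgeR adjusted p = 0.0835), vehicle 12 h B (0.122), EMD37 12 h A (0.171) or EMD37 24 h A (0.168), and the AIMP2 call without EMD37 12 h B (0.0586). The XPOT call was lost without any library other than vehicle 24 h A and EMD37 24 h A, at an adjusted p of 0.0652 to 0.137, and the GATC call without any library other than vehicle 24 h A, at 0.0511 to 0.132.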

How the results depend on the processing

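Of 29 calls of members in the 2 treatment comparisons, 18 held in every alternative run for them, 11 were lost in at least 1 and none changed sign. The 11 cytosolic rises at 24 h, the fall of FARSB and 6 of the 7 rises at 12 h, MARS1 being the exception, were among those that held. No alternative moved the median of all genes by 0.1 on the log2 scale. With only the libraries of 1 time in the fit, 11 cytosolic genes were higher at 12 h (7 with all libraries). That fit called 1394 of 14126 genes higher, against 782 of 14850 with all libraries. At 24 h 3 mitochondrial genes were lower in such a fit (5 with all), where 2539 of 14168 genes were lower, against 3128 of 14850. DESeq2 also called 3 mitochondrial genes lower at 24 h, and 2314 of 14850 genes. With recovered reads 1 mitochondrial gene was lower at 12 h (0 without), which is MARS2. In the interaction, cytosolic genes called lower numbered 1 with RLE factors, with recovered reads, with the replicate block and in DESeq2 (3 as reported), and mitochondrial ones 0 without the filter and in DESeq2 (1 as reported). Without the filter 2 cytosolic genes were lower there, FARSB and FARSA, and the HARS1 and QARS1 calls were lost (adjusted p = 0.127 and 0.071). Without the filter 1 cytosolic gene was higher in vehicle at 24 h against 12 h (0 as reported). Over all 14850 genes, 1179 were lower in the interaction as reported, 1049 with RLE factors, 1067 with the replicate block and 792 in DESeq2. There were 1148 of 17863 with recovered reads and 1070 of 30765 without the filter. In vehicle over time 623 of 30765 genes were higher without the filter, against 408 of 14850 as reported. The cause of the moves in member counts was not tested, apart from the added gene.

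With each library left out in turn, 1 to 4 cytosolic and 1 to 6 mitochondrial genes were lower at 24 h. In the interaction 0 to 5 cytosolic and 0 to 3 mitochondrial genes were lower. In vehicle over time 0 to 3 cytosolic genes were higher and 1 to 9 lower. In each of these comparisons the number of calls over all genes also changed with the library left out. Whether the members' counts moved more than those of all genes was not tested, so the ranges alone do not show that the members were unstable. The labels do not say whether the letters A and B pair the libraries. Correlations of the A minus B differences between groups ran from -0.162 to 0.161, which shows no strong shared shift and does not settle the pairing. With the letter as a replicate block, 7 cytosolic genes were higher at 12 h, 11 higher and 4 lower at 24 h, and 6 mitochondrial genes lower at 24 h. With 2 libraries a group and few reads, a change in KARS1 or VARS2 is poorly measured, and the incomplete copy of the count table limits the set to the genes found in either table.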
